A study of Mus musculus with 14 samples.

Results

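Immediate early genes, most but not all of them of the AP-1 and Egr families, were followed in the hearts of 14 female FS6KD mice. The 10 genes were taken from a fixed list (Fos, Fosb, Fosl2, Jun, Junb, Jund, Egr1, Ier2, Btg2 and Nr4a1), and all 10 were present among the 42396 genes that both count tables list. FS6KD mice carry a knockdown of Ndufs6, a subunit of respiratory complex I on a mixed genetic background, so the control hearts were diseased too. In the knockout experiment, 4 Atf3+/+FS6KD hearts were compared with 4 Atf3-/-FS6KD hearts at 12 weeks, the latter from mice in which CRISPR-Cas9 had removed the stretch from exon 2 to exon 4 of Atf3 in every cell. In the AAV experiment, 3 hearts labelled MyoAAV2-shCtrl were compared with 3 labelled MyoAAV2-shAtf3. These FS6KD mice had been injected as neonates with a muscle-directed adeno-associated virus that carried a control short hairpin RNA or one against Atf3, and their age at collection is not stated clearly.

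Immediate early genes are transcribed within minutes of a stimulus, without the need for new protein, and their mRNAs are short-lived. Proteins of the Fos family pair with proteins of the Jun family to form AP-1, a leucine zipper transcription factor, while Egr1 is a zinc finger factor and Nr4a1 an orphan nuclear receptor. Atf3 is a leucine zipper factor that can pair with Jun proteins, and its own gene is also induced by stress. In the heart, these genes are known to respond to stretch, adrenergic stimulation, ischaemia and handling of the tissue.

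The columns of the AAV table are named the other way round from the labels, so the groups are called labelled shCtrl and labelled shAtf3, and each direction given for them is conditional on the labels. Total counts were 33914931 to 42409691 in replicates 1 and 2 and 112904389 to 134920825 in replicates 3 and 4 of the knockout experiment, and these pairs of replicates were treated as depth batches. They were 30085432 to 40534913 in the AAV experiment. Counts of the members ran from 12 (Fosb) to 14375 (Nr4a1). Cardiomyocyte markers were abundant in every library, whereas the 5 atrial markers were uneven in tissue described as whole heart. Sln (0 to 4 counts), Myl7 (0 to 29) and Bmp10 (0 to 33) were low, Myl4 had 52 to 351 counts and Nppa 7462 to 81703. Levels are given as CPM, the count of a gene relative to a library total adjusted by TMM scaling, which was done within each experiment.

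Atf3 was examined before the members, since both experiments target it. From replicate 1 to replicate 4, it was 25.8, 6.89, 6.91 and 6.36 CPM in the Atf3+/+FS6KD hearts and, in the same order, 25.6, 37.6, 22.7 and 14.3 CPM in the 4 Atf3-/-FS6KD hearts. Replicate 1 of Atf3+/+FS6KD therefore stood at the level of the Atf3-/-FS6KD hearts. The log2 fold change of Atf3 was 1.14 (SE 0.49, adjusted p 0.480 in edgeR), and 1.89 without that heart. Reads from exon sequence outside the deletion count towards the gene, so a gene count says nothing of the full-length mRNA. In the AAV experiment Atf3 was 10.1, 13.3 and 14.1 CPM in the hearts labelled shCtrl and 21.2, 12.1 and 16.5 CPM in those labelled shAtf3, with overlapping groups and no reduction.

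Most of the 10 genes varied far more between hearts of the same group than genes in general. The SD of log2 CPM within groups, pooled over the 4 groups, was 1.02 for Fos, 0.95 for Egr1, 0.90 for Nr4a1 and 0.83 for Fosb. It was 0.13 at the median of 13371 expressed genes (mean log2 CPM above 1), and only 0.165% of these had a larger SD than Fos. Fosb, at a mean log2 CPM of -0.12, lay below the level of these genes. Btg2 (0.48), Fosl2 (0.45) and Ier2 (0.45) were intermediate. Junb (0.33), Jun (0.28) and Jund (0.26) varied least among the members, and 12.5% of genes had a larger SD than Jund. These SDs are on the log2 scale and describe spread, not a difference between groups.

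Promoter sequences are shown for 4 genes: Fos and Nr4a1, which spread widely but had an r of only 0.0925 with each other, Btg2, the member on the chromosome of Atf3, and Atf3 itself. They run 5′ to 3′ from 250 bases before to 50 bases after the transcription start (RefSeq, GRCm38.p6), and capitals mark TGACG on either strand, the core of the cAMP response element (CRE) to which factors of the ATF and CREB families bind.
Fos, chr12:85473640-85473939, plus strand: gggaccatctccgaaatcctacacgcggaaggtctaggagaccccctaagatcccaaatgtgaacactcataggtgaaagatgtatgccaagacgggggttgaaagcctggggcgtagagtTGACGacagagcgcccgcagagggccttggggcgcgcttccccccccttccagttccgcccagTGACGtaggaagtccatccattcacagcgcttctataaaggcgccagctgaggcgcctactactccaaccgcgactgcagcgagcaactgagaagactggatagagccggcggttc
Nr4a1, chr15:101266596-101266895, plus strand: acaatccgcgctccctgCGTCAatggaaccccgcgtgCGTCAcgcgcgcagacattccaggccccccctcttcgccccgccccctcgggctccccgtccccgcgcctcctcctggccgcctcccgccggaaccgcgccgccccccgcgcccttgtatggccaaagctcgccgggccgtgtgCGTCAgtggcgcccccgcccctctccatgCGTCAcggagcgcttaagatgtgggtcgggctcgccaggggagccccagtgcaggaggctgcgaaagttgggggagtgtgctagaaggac
Btg2, chr1:134079106-134079405, minus strand: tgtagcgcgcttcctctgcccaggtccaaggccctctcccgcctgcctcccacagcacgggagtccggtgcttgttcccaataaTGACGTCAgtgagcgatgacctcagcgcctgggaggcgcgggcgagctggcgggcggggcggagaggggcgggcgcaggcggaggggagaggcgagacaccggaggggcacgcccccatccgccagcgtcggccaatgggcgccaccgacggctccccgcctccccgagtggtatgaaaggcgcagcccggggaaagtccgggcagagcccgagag
Atf3, chr1:191183284-191183583, minus strand: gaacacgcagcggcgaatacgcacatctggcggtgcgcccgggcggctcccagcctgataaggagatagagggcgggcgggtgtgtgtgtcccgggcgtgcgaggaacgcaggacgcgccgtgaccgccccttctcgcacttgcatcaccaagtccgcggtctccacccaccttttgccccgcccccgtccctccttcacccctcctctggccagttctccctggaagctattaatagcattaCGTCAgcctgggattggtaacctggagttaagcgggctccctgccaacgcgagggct

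RefSeq promoter entries were matched for 8 of the 10 members, and those of Egr1 and Ier2 were not used here. TGACG was found in 5 of these 8 promoters (Btg2, Fos, Fosb, Junb and Nr4a1) and in 20.8% of 32851 promoters of the same length. Fos held it at positions -129 and -66 and Nr4a1 held it at -233, -213, -69 and -40, counted from the start. The full palindrome TGACGTCA, searched on both strands and overlapping TGACG by construction, was found in Btg2 alone of the 8 (first base at -166) and in 1.79% of all promoters. The Egr motif GCGNGGGCG was found in 4 of the 8 (Btg2, Fosb, Fosl2 and Nr4a1), against 5.55% of all promoters, with no account taken of base composition. The AP-1 motif TGANTCA was found in 0 of the 8 and in 7.81% of all promoters. The CArG box of serum response factor and the Nr4a motif AAAGGTCA were found in 0 of the 8 windows as well. They were found in 1.63% and 1.51% of all promoters, so 0 of 8 is no result about these genes. Sites farther than 250 bases before the start were not searched. Each match is a description of letters in a window and not of binding.

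Per kilobase of exonic sequence, the level of Jund was among the highest in every group. Jund, a Jun protein present in most resting cells, is listed together with a copy, Jund_1, that held identical values in every library, so its deposited count is the share of a single copy, and the copy was added here. In Atf3+/+FS6KD hearts the levels per kilobase were 44.8 ± 8.27 CPM for Jund, 44.6 ± 13.9 for Btg2, 32.5 ± 18.5 for Nr4a1, 30.1 ± 1.95 for Jun and 21.1 ± 14.2 for Egr1 (SD, n = 4). Ier2 (15.3 ± 5.11), Junb (15.1 ± 2.01), Fos (10.7 ± 6.17) and Fosl2 (6.06 ± 2.91) followed. The gap between neighbours in this order was smaller than the sum of their SDs, with the exception of the gap from Fosl2 down to Fosb (0.226 ± 0.163). In the hearts labelled shCtrl, Jund (39.8 ± 8.08 CPM per kilobase, SD, n = 3) was followed by Jun (23.2 ± 7.77) and Btg2 (22.7 ± 9.62), and Fosb was again at the bottom (0.128 ± 0.0858).

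**Figure D1:**
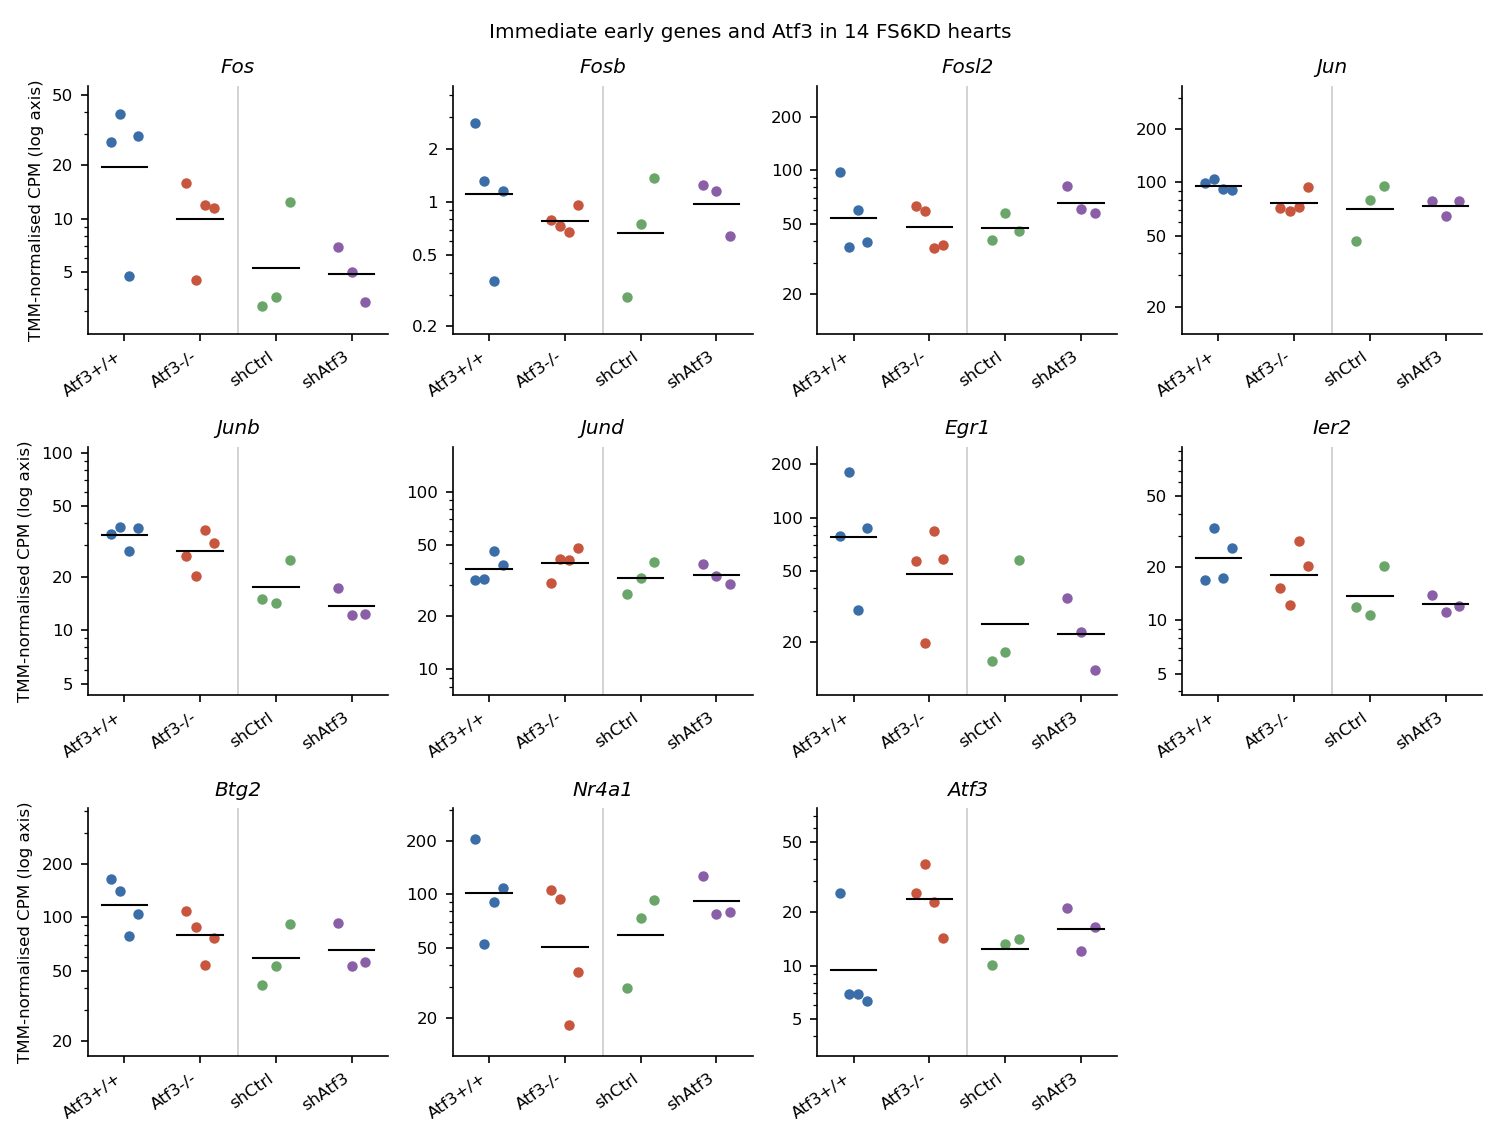
TMM-normalised CPM (log axis) of the 10 immediate early genes and Atf3 in each heart (points) by group, with the geometric mean of the group as a line; the grey line separates the knockout experiment from the AAV experiment, which were normalised separately. Groups overlap in every panel, and Fos, Egr1 and Nr4a1 have larger within-group SDs of log2 CPM (1.02, 0.95 and 0.90) than Jun and Jund (0.28 and 0.26).

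The knockout comparison asks whether immediate early genes differ between FS6KD hearts with and without Atf3. Point estimates were lower in Atf3-/-FS6KD for 9 of the 10 members, with a median log2 fold change of -0.45 against 0.00 over the 15592 genes tested, of which 49.8% were lower. None of the 10 passed the threshold in edgeR (adjusted p over all genes, below 0.05), nor did any other gene (0% called). The smallest adjusted p of a member was 0.389 (Jun). At an unadjusted p below 0.05 there were 2 members, Jun and Btg2, where 10.1% of all genes reached that level. The number was 5 without Atf3+/+FS6KD replicate 3 (11% of all genes in that fit), 1 without any 1 of Atf3+/+FS6KD replicates 1 and 2 and Atf3-/-FS6KD replicates 2 and 4, and in the depth batches it was 7 within replicates 1 and 2 (5.9% of all genes) and 1 within replicates 3 and 4 (7.09%). DESeq2 called 0 of the 10, where it called 1.33% of all genes. The groups did not overlap for 0 members, against 5.71% of all genes.

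Among the Fos family, Fos was 27.2, 39.0, 4.73 and 29.3 CPM in the 4 Atf3+/+FS6KD hearts (replicates in order) and 15.9, 4.52, 11.9 and 11.5 CPM in the 4 Atf3-/-FS6KD hearts. Replicate 3 of Atf3+/+FS6KD and replicate 2 of Atf3-/-FS6KD were the low libraries, at nearly the same level, and the groups overlapped. Fos had a log2 fold change of -1.18 with an SE of 0.56 (adjusted p 0.523 in edgeR).

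Fosb, whose product pairs with Jun proteins as Fos does, had the lowest level of the 10. It was 2.80, 1.32, 0.359 and 1.15 CPM in Atf3+/+FS6KD and 0.792, 0.735, 0.682 and 0.960 CPM in Atf3-/-FS6KD (log2 fold change -0.78, SE 0.51, edgeR adjusted p 0.618). Its extremes both belonged to Atf3+/+FS6KD hearts, and without replicate 1 of that group the estimate was -0.21. Fosl2, which encodes the Fos family protein Fra-2, was 98.1, 37.1, 59.7 and 39.6 CPM in Atf3+/+FS6KD and 63.2, 59.0, 36.3 and 37.9 CPM in Atf3-/-FS6KD (log2 fold change -0.26, SE 0.32, edgeR adjusted p 0.808). Its highest library was the replicate 1 in which Atf3 was also high, and without that library the estimate turned to 0.10.

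Jun, the main partner of Fos in AP-1, spanned a 1.5-fold range over the 8 hearts. It was 98.8, 104, 91.5 and 90.4 CPM in Atf3+/+FS6KD and 71.9, 69.1, 72.6 and 93.8 CPM in Atf3-/-FS6KD (log2 fold change -0.32, SE 0.10, edgeR adjusted p 0.389). Replicates 1 to 3 of Atf3-/-FS6KD were below every Atf3+/+FS6KD heart, and replicate 4 lay among them. Junb was 34.9, 38.3, 28.1 and 37.5 CPM against 26.0, 20.3, 36.9 and 30.9 CPM (log2 fold change -0.28, SE 0.17, edgeR adjusted p 0.618). Junb moved to -0.14 without Atf3-/-FS6KD replicate 2 and to -0.43 without replicate 3. Jund was 31.9, 32.2, 46.5 and 38.8 CPM against 30.5, 41.8, 41.1 and 48.1 CPM, without the copy, and had a positive estimate (0.11, SE 0.16, edgeR adjusted p 0.834), which ranged from 0.01 without Atf3-/-FS6KD replicate 4 to 0.23 without Atf3+/+FS6KD replicate 3.

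Egr1 followed Fos in its pattern of libraries. It was 78.8, 182, 30.2 and 87.3 CPM in Atf3+/+FS6KD and 57.2, 19.6, 84.0 and 58.5 CPM in Atf3-/-FS6KD, with the low values in the same libraries as for Fos (log2 fold change -0.78, SE 0.53, edgeR adjusted p 0.640). Egr1 moved to -0.25 when Atf3+/+FS6KD replicate 2 was left out and to -0.50 when Atf3-/-FS6KD replicate 2 was. Ier2, an immediate early gene of growth factor stimulation, was 17.0, 33.4, 17.4 and 25.5 CPM against 15.3, 12.2, 28.1 and 20.3 CPM (log2 fold change -0.28, SE 0.29, edgeR adjusted p 0.762). Ier2 was -0.07 and -0.12 without the same hearts and -0.54 without Atf3-/-FS6KD replicate 3.

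Btg2, which encodes an antiproliferative protein that promotes deadenylation of mRNA, was 165, 141, 78.6 and 105 CPM in Atf3+/+FS6KD and 108, 88.8, 54.2 and 76.4 CPM in Atf3-/-FS6KD. The groups overlapped, and the log2 fold change was -0.58 (SE 0.26, unadjusted p 0.0482 and adjusted p 0.488 in edgeR). Nr4a1 was 205, 52.4, 90.1 and 109 CPM against 106, 93.8, 18.3 and 36.4 CPM, an 11.2-fold range over the 8 hearts (log2 fold change -0.85, SE 0.56, edgeR adjusted p 0.628). Its low libraries were replicates 3 and 4 of Atf3-/-FS6KD, which were not the low libraries of Fos and Egr1. The estimate of Nr4a1 was -0.41 without Atf3+/+FS6KD replicate 1 and -0.54 without Atf3-/-FS6KD replicate 3.

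The members were also compared within each depth batch. Within replicates 1 and 2, 9 of 10 members were lower in Atf3-/-FS6KD with a median of -0.65, and within replicates 3 and 4, 5 of 10 were lower with a median of -0.04. Egr1 was -1.76 in the shallower and 0.27 in the deeper batch, Fosb -1.44 and 0.11, Ier2 -0.87 and 0.17, and Junb -0.66 and 0.04. Fos (-1.69 and -0.55), Jun (-0.52 and -0.13), Btg2 (-0.63 and -0.49), Fosl2 (-0.15 and -0.42) and Nr4a1 (-0.37 and -1.86) had a negative estimate in both. The genotype by depth batch interaction, fitted in edgeR over all genes, had an adjusted p of 0.999 for each member. Its unadjusted edgeR p was 0.0269 for Junb, 0.0525 for Jun, 0.0699 for Ier2 and 0.07 for Egr1. It was 0.108 or more for the other members. The share of all genes at such p values was not counted for this interaction. A batch held 2 hearts of each genotype.

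Btg2 lies on chromosome 1 (GRCm38.p6, 134074865 to 134079155, minus strand), 57.1 Mb from Atf3 on the same chromosome. Of the 81 other tested genes that start within 5 Mb of Btg2, 13 (16%) had an unadjusted p below 0.05 in the knockout comparison, of which 5 were lower in Atf3-/-FS6KD. The median log2 fold change of the 81 was -0.01. The share over all genes was 10.1%, as given above, and none of the 81 passed the adjusted threshold.

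In the AAV comparison, the direction of the members depended on single hearts. Relative to the hearts labelled shCtrl, 5 of 10 were higher and 5 lower in those labelled shAtf3, and the median log2 fold change was 0.02 (-0.00 over all 15225 genes tested). Without shCtrl replicate 3, 1 of 10 was lower, with a median of 0.48 and 5 members at an unadjusted p below 0.05 (15.1% of all genes in that fit). Without shCtrl replicate 1, 8 of 10 were lower (median -0.17), and without shAtf3 replicate 1, 7 of 10 were (median -0.12). edgeR called 0 members, where it called 0.539% of all genes, while DESeq2 called 1, Fosl2, and 2.02% of all genes. At an unadjusted p below 0.05 there was 1 member with all 6 hearts included, Fosl2, against 12.7% of all genes. No member had groups without overlap, against 18.4% of all genes.

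Fosl2 was 40.2, 57.6 and 45.3 CPM in the hearts labelled shCtrl and 81.2, 60.3 and 57.4 CPM in those labelled shAtf3. The lowest value of the second group lay just below the highest of the first. On the log2 scale the estimate was 0.48 with an SE of 0.16 (adjusted p 0.256 in edgeR). The adjusted p was 0.0421 in DESeq2 and reached 0.534 when 1 library was left out, and the estimate stayed positive (0.30 to 0.63) under every alternative.

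Nr4a1 was 29.5, 73.5 and 93.3 CPM in the hearts labelled shCtrl and 126, 77.8 and 79.4 CPM in those labelled shAtf3 (log2 fold change 0.53, SE 0.35, edgeR adjusted p 0.575). Replicate 1 labelled shCtrl was the low library, without which the estimate of Nr4a1 was 0.18. It was 0.88 without shCtrl replicate 3 and 0.26 without shAtf3 replicate 1. Btg2 was 41.4, 53.2 and 91.9 CPM against 93.0, 53.4 and 56.3 CPM (log2 fold change 0.12, SE 0.29, edgeR adjusted p 0.907), with 1 high heart in each group.

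The direction of Fos, Egr1 and Ier2 turned with 1 heart labelled shCtrl, replicate 3. Fos was 3.21, 3.62 and 12.4 CPM in the hearts labelled shCtrl and 6.90, 5.03 and 3.40 CPM in those labelled shAtf3. Egr1 was 15.7, 17.5 and 58.1 CPM against 35.4, 22.6 and 13.8 CPM. Ier2 was 11.9, 10.8 and 20.3 CPM against 14, 11.2 and 12.0 CPM. Without that heart the log2 fold changes turned from -0.31 to 0.59 for Fos, from -0.34 to 0.53 for Egr1 and from -0.21 to 0.13 for Ier2, and none of the 3 passed the threshold in edgeR.

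Junb was 15, 14.3 and 24.9 CPM against 17.3, 12.1 and 12.4 CPM (log2 fold change -0.37, SE 0.22, edgeR adjusted p 0.531), with the same high heart. Without it the estimate of Junb was -0.07, and without shAtf3 replicate 1 it was -0.56. Jun was 47.0, 79.7 and 95.7 CPM against 78.4, 64.5 and 78.7 CPM, Jund 26.7, 32.7 and 40.2 CPM against 39.1, 33.5 and 30.4 CPM, and Fosb 0.290, 0.753 and 1.36 CPM against 1.24, 1.15 and 0.646 CPM. In all 3 of these genes replicate 3 was the highest and replicate 1 the lowest of the hearts labelled shCtrl. Their log2 fold changes of -0.00, 0.05 and 0.37 were smaller than their SEs of 0.21, 0.14 and 0.47.

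**Figure D2:**
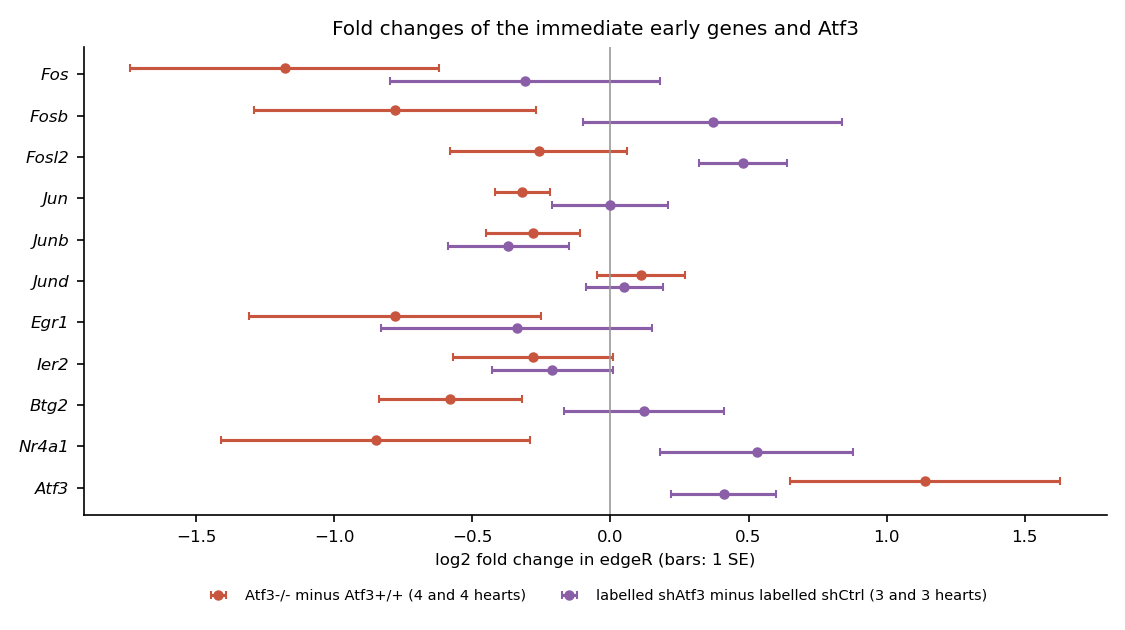
Log2 fold change of each immediate early gene and of Atf3 in edgeR (points, bars 1 SE) in the knockout comparison (red) and the AAV comparison (purple, direction as labelled). In the knockout comparison 9 of 10 members lie below 0 and in the AAV comparison 5 of 10, and none passed the adjusted threshold in either.

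An interaction term over 15708 genes gave the knockout effect minus the effect labelled as knockdown. It was negative for 8 of 10 members with a median of -0.57. The median was -0.91 with 10 of 10 negative without shCtrl replicate 3, -0.30 without shCtrl replicate 1 and -0.34 without shAtf3 replicate 1. edgeR called 0 members, where it called 0.166% of all genes, and 0 members had an unadjusted p below 0.05 with all 14 hearts included, against 17% of all genes. DESeq2 called 0 members and 4.26% of all genes. Nr4a1 had an estimate of -1.39 (SE 0.80, edgeR adjusted p 0.406). These values hold for the labels as given. With the AAV groups taken as the columns are named, 8 of 10 members were negative with a median of -0.44, Fos was -1.50, Egr1 -1.12, Nr4a1 -0.32 and Fosl2 0.22, and edgeR called 0 members and 0 of all genes. At an unadjusted p below 0.05 there were then 0 members, against 4.14% of all genes. Levels in the control groups, set side by side across tables that were normalised separately and with no test, were 25.1 ± 14.5 and 6.39 ± 5.17 CPM for Fos and 94.7 ± 63.7 and 30.5 ± 24 CPM for Egr1 (SD, n = 4 and n = 3).

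The members were then compared with one another across hearts, after the mean of each group had been taken away, so that differences between groups play no part. Among Fos, Egr1, Junb and Ier2, 5 of the 6 pairs had a positive r that passed the threshold, and Fos with Ier2 did not (r 0.666, rho 0.635, exact permutation p 0.0375 and 0.0435, adjusted p 0.141 for r). Over the 45 pairs of members the median Pearson r was 0.409, 34 were positive, and 7 passed the adjusted threshold (exact permutation within groups, two-sided, Benjamini-Hochberg over 45 pairs), all 7 positive. The count fell to 3 without the heart labelled shCtrl replicate 1, and to 4 without any 1 of Atf3+/+FS6KD replicates 1, 2 and 3, Atf3-/-FS6KD replicate 3, the heart labelled shCtrl replicate 3 or the heart labelled shAtf3 replicate 1. Of the 45 pairs 9 had an r above 0.7, where a member and any other gene exceeded this value in 2.02% of 151080 pairs.

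Fos and Egr1 had the highest r, 0.926 (exact permutation p 0.00048, adjusted p 0.00796, n = 14 libraries). Spearman's rho was 0.864 (exact permutation p 0.00135), r was 0.902 within the knockout experiment and 0.991 within the AAV experiment, and it was 0.894 without the 2 hearts farthest in the second gene of the pair. Junb with Egr1 had r 0.890 (rho 0.912, exact permutation p 0.00053 and 0.000434) and Junb with Ier2 had r 0.880 (rho 0.842, exact permutation p 0.00024 and 0.000386). Without the 2 farthest hearts these were 0.85 and 0.907. These 3 pairs stayed past the threshold under all 19 alternatives, and with the depth batch removed they were 0.942, 0.933 and 0.871.

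Egr1 with Ier2 (r 0.851, rho 0.815, exact permutation p 0.00101 and 0.00106, r 0.797 without the 2 farthest hearts) passed under 16 of the 19 alternatives. It was 0.909 with the depth batch removed. Fos with Junb (r 0.770, rho 0.83, exact permutation p 0.00598 and 0.00511, r 0.771 without the 2 farthest hearts) passed under 8 of them. All 4 genes were below their group means in Atf3+/+FS6KD replicate 3 and Atf3-/-FS6KD replicate 2, for example, and above them in Atf3+/+FS6KD replicate 2 and the heart labelled shCtrl replicate 3. Without Atf3+/+FS6KD replicate 3, r was 0.93 for Fos with Egr1 and 0.83 for Fos with Junb, and the latter pair no longer passed the threshold (adjusted p 0.154, exact permutation).

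A second pattern joined Fosl2 and Nr4a1. Their r was 0.794 (rho 0.83, exact permutation p 0.0055 and 0.00256, adjusted p 0.0384 for r, n = 14 libraries), with 0.826 in the knockout and 0.679 in the AAV experiment and 0.781 without the 2 farthest hearts. It was 0.725 (adjusted p 0.148, exact permutation) once the depth batch was removed, and the pair passed under 10 of the 19 alternatives. Fosl2 ran against Ier2 (r -0.676, rho -0.705, exact permutation p 0.0344 and 0.0402, adjusted p 0.141 for r), a value that did not pass the threshold. Fosb with Btg2 (r 0.767, rho 0.798, exact permutation p 0.00598 and 0.00641, r 0.717 without the 2 farthest hearts) passed under 8 of the 19 alternatives. Jun and Jund were in 0 of the 7 pairs.

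**Figure D3:**
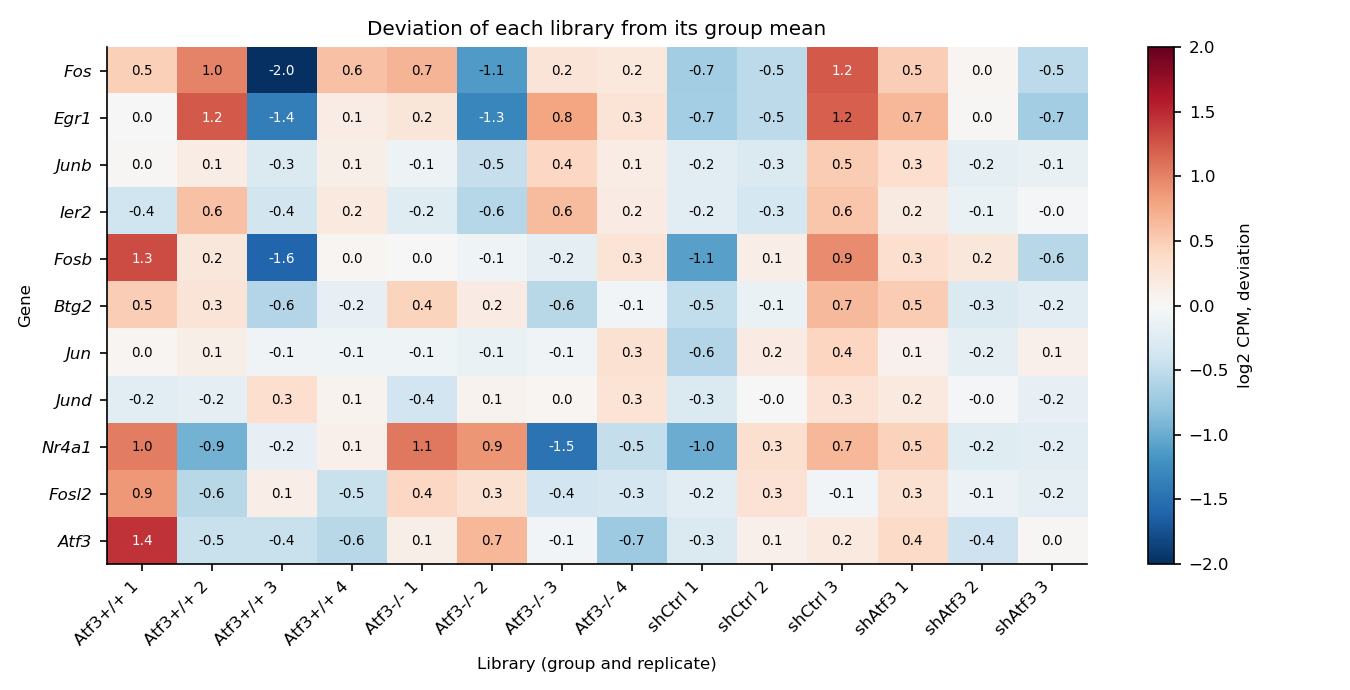
Deviation of each heart (columns) from the mean of its group in log2 CPM, for the 10 members and Atf3 (rows), with red above and blue below the mean. Fos and Egr1 share their low hearts (Atf3+/+ 3, Atf3-/- 2) and their 2 highest hearts (Atf3+/+ 2, shCtrl 3), and Nr4a1 and Fosl2 are high in Atf3+/+ 1 with Atf3.

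**Figure D4:**
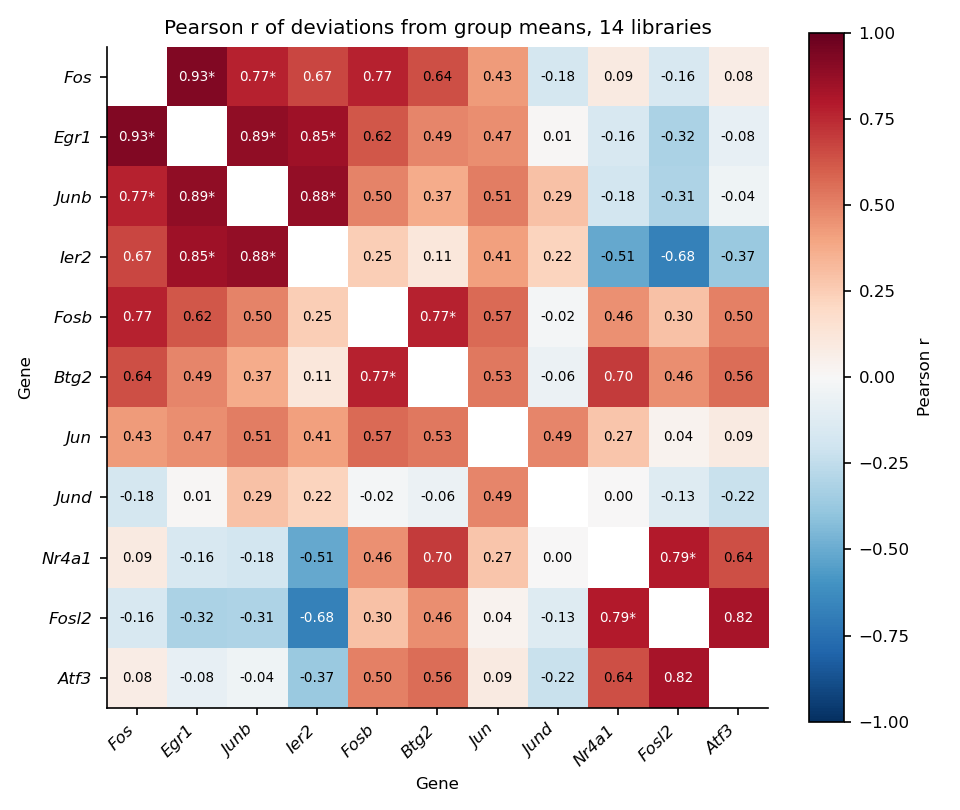
Pearson r between the deviations of 2 genes over 14 libraries, with stars on the 7 member pairs at an adjusted p below 0.05 (exact permutation, 45 pairs); relations to Atf3 were adjusted separately and none passed. The block of Fos, Egr1, Junb and Ier2 at the upper left holds 5 of the 7 pairs, and Fosl2 with Nr4a1 and with Atf3 stands apart at the lower right.

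The median r of the 45 pairs was 0.80 in the AAV experiment and 0.169 in the knockout experiment. The difference between these medians was not tested, and the AAV value rests on 6 hearts. Jund, for example, had r 0.916 with Fos in the AAV experiment and -0.670 in the knockout experiment.

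The relation to Atf3, which belongs to the same class of stress-induced genes, did not pass the threshold for any member in any of 30 relations. In the knockout experiment (8 hearts, with the difference between genotypes left in) 3 of 10 members had a positive r with Atf3, the median was -0.241, and 0 exceeded 0.7, against 5.46% of all genes. Without the 2 hearts farthest from the median of Atf3 (Atf3+/+FS6KD replicates 2 and 4), 6 of 10 were positive, and Fos went from -0.314 to 0.307, Egr1 from -0.417 to 0.059 and Btg2 from -0.092 to 0.289. Replicate 3 of Atf3+/+FS6KD, which was kept, had nearly the Atf3 level of replicate 2 (6.91 and 6.89 CPM). In the AAV experiment (6 hearts, with the group difference left in) all 10 were positive with a median of 0.607 and 3 exceeded 0.7, against 8.86% of all genes. These 3 were Nr4a1 (r 0.847, rho 0.886, exact permutation p 0.0403 and 0.0333), Fosl2 (r 0.806, rho 0.486, exact permutation p 0.0583 and 0.356) and Btg2 (r 0.756, rho 0.886, exact permutation p 0.0694 and 0.0333). The adjusted p of each r was 0.342. They rested on the 2 hearts farthest in Atf3, replicate 1 of either group, without which r was 0.224, -0.206 and 0.169. Without those hearts 5 of the 10 members had a positive r.

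Over all 14 hearts, as deviations from group means, Fosl2 was the member closest to Atf3. Its r was 0.823 and its rho 0.811 (exact permutation p 0.00685 and 0.00391, adjusted p 0.205 and 0.117), and 0.1% of all genes had a higher r. Only Fosl2 of the members exceeded 0.7, against 1.07% of all genes. Without Atf3+/+FS6KD replicate 1 and Atf3-/-FS6KD replicate 4, the hearts farthest in Atf3, it was 0.552. Nr4a1 followed with r 0.643 and rho 0.710 (exact permutation p 0.0297 and 0.0118, adjusted p 0.342 and 0.177). For Nr4a1, r was 0.615 without those hearts, 0.49 with the depth batch removed and 0.51 with the replicate block. Btg2 had r 0.559 and rho 0.556 (exact permutation p 0.0508 and 0.0518, adjusted p 0.342 and 0.259). For Btg2, r was 0.614 without those hearts, 0.28 with the depth batch removed and 0.32 with the replicate block.

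For Fos, Egr1, Junb and Ier2 no relation to Atf3 passed. Their r with Atf3 over the 14 hearts was 0.078 for Fos, -0.080 for Egr1, -0.045 for Junb and -0.373 for Ier2, with adjusted p values of 0.577 to 0.891 (exact permutation). Fosb (0.504), Jun (0.091) and Jund (-0.223) did not pass either, and Jund was 0.470 without the 2 farthest hearts. Fosb fell to 0.08 without Atf3+/+FS6KD replicate 1 alone. The mean of the 10 members had an r of 0.362 with Atf3, which ranked 2421 of the expressed genes.

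**Figure D5:**
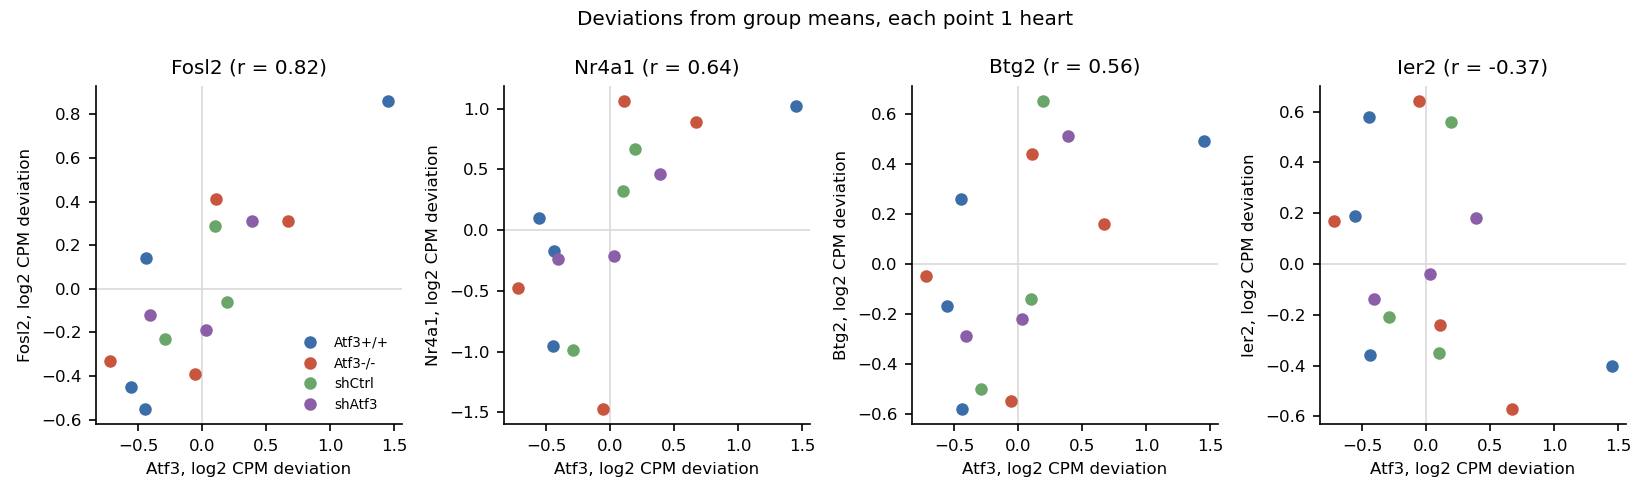
Deviation from the group mean in log2 CPM of Fosl2, Nr4a1, Btg2 and Ier2 (vertical axes) against that of Atf3 (horizontal axis), each point 1 heart and each colour a group. Fosl2 rises with Atf3 (r 0.82), with Atf3+/+FS6KD replicate 1 at the upper right, and Ier2 does not (r -0.37).

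Markers of other cell types moved with these values in part. Over the 14 hearts the median r with the mean of the 10 members was 0.607 for 7 cardiomyocyte markers, -0.535 for 7 fibroblast markers and -0.369 for 7 macrophage markers, and -0.020 over 13362 genes. It was 0.285 for 6 endothelial, 0.120 for 5 erythrocyte, 0.045 for 6 mural and -0.350 for 2 atrial markers. Of the 7 cardiomyocyte markers, 1 exceeded an r of 0.7, against 2.01% of the 13362 genes. The summed level of the 7 fibroblast markers was 1573 to 1869 CPM in Atf3+/+FS6KD and 1897 to 2495 CPM in Atf3-/-FS6KD, and 2022 to 2657 CPM in the hearts labelled shCtrl and 1556 to 1626 CPM in those labelled shAtf3. All 7 were higher in Atf3-/-FS6KD, 6 of them at an unadjusted edgeR p below 0.05, against 10.1% of all genes. There edgeR called 0 of the 7, and 0% of all genes. In the hearts labelled shAtf3 all 7 were lower, 7 of them at an unadjusted edgeR p below 0.05, against 12.7% of all genes. Of these, edgeR called 3, against 0.539% of all genes. Summed cardiomyocyte markers were 56908 to 70244 and 48029 to 64950 CPM in the knockout experiment and 54174 to 60923 and 58820 to 63556 CPM in the AAV experiment. Summed macrophage markers were 133 to 169 and 142 to 205 CPM, and 198 to 217 and 185 to 189 CPM. None of these markers was at 0. Their part in the values of the members was not tested. In bulk tissue, fewer cells of a type and less RNA per cell cannot be told apart.

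The genes whose pattern was most like the mean of the members, by r of deviations over 14 hearts, were Nit2 (0.923), Gm11266 (0.910), Jph1 (0.896), Rtn2 (0.890) and Spg7 (0.886), followed by Gatb, Dpyd, Hic2, Ripor1 and Sqor (0.866 to 0.878). None of these 10 belongs to the lists of immediate early genes, dimer partners or upstream regulators. Jph1 encodes a junctophilin and Spg7 a mitochondrial protease. The 10 genes were the highest of 13362, of which 269 (2.01%) had an r above 0.7 with the mean. That mean pools members with unlike patterns, such as Fosl2 and Ier2 (r -0.676, not past the threshold).

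Of 32 other immediate early genes listed, 29 were tested, and no test compared them with the members. In the knockout comparison 16 were lower and 13 higher in Atf3-/-FS6KD with a median log2 fold change of -0.04, edgeR called 0 (0% of all genes), and 3 had an unadjusted p below 0.05, against 10.1% of all genes. These 3 were Arc (-0.77, SE 0.25), Zfp36, which encodes a protein that destabilises AU-rich mRNAs (-0.42, SE 0.13), and Csrnp1 (-0.53, SE 0.21), with edgeR adjusted p values of 0.392, 0.392 and 0.459.

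In the AAV comparison 18 of the 29 were lower and 11 higher in the hearts labelled shAtf3, with a median of -0.12. At an unadjusted p below 0.05 there were 9 of 29, against 12.7% of all genes, and the groups of 7 did not overlap, against 18.4% of all genes. edgeR called 1 of 29, against 0.539% of all genes. It was Ccn2, which encodes connective tissue growth factor. Ccn2 fell from 154 ± 29.0 CPM in the hearts labelled shCtrl to 94.1 ± 3.70 CPM in those labelled shAtf3 (SD, n = 3 hearts), a log2 fold change of -0.71 with an SE of 0.12 (adjusted p 0.0463 in edgeR). The call was lost with the replicate block and without any 1 of 5 libraries, and over 11 alternatives the adjusted p ran from 6.53e-07 to 0.229, while the log2 fold change stayed between -0.85 and -0.58. Myc (-0.71, SE 0.16, edgeR adjusted p 0.126) and Socs3 (-0.58, SE 0.18, edgeR adjusted p 0.244) came next. Fibroblast markers were lower in the same hearts, as given above, and their part in the value of Ccn2 was not tested.

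Dimer partners and upstream regulators had median log2 fold changes close to 0. Of 19 tested AP-1 and ATF dimer partners, 12 were higher in Atf3-/-FS6KD (median 0.06, edgeR called 0) and 8 were higher in the hearts labelled shAtf3 (median -0.01, edgeR called 0). At an unadjusted p below 0.05 there were 1 (Batf, 0.66, SE 0.26) and 3 (Cebpd, -0.33; Mafg, -0.23; Maf, -0.30) of 19, against 10.1% and 12.7% of all genes. Of 19 upstream regulators, which include serum response factor, its cofactors and kinases of the MAPK cascades, 8 were higher in Atf3-/-FS6KD (median -0.02) and 13 in the hearts labelled shAtf3 (median 0.07). edgeR called 0 in either, and 0 and 4 of 19 had an unadjusted p below 0.05, against the same 10.1% and 12.7%. The smallest p values among these 4 belonged to Map2k7 (0.17, SE 0.07), Mrtfb (0.21, SE 0.09) and Map2k4 (0.14, SE 0.06).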

How the data were processed

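RNA of each heart had been sequenced from stranded poly(A) libraries. Per the labels, reads were counted with featureCounts 2.0.0 on GRCm38.p6; the aligner and the use of strand in counting are not given in the sources used here, so overlapping and antisense genes are uncertain. The authors' deposited tables hold expected counts per gene and library, neither normalised nor pooled, of which 19.3% to 24.4% were not whole. They were rounded to whole numbers.

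Groups followed the GEO labels. The labels do not say that libraries came from separate litters or days, so p values measure the spread between these hearts. No pair of replicates was identical. Genes above 1 CPM in at least 1 library were tested with edgeR 4.0.16 in R 4.3.3 (TMM scaling, quasi-likelihood test, Benjamini-Hochberg adjustment over all genes, threshold 0.05, no covariate), with the difference between experiments as an interaction over 14 libraries. The scripts were tested on simulated data. Log2 CPM used a prior count of 2. Correlations were tested by exact permutation (within groups for deviations), adjusted over 30 relations to Atf3 and over 45 pairs. The 2 farthest hearts were those farthest from the median of the named gene. Exonic lengths came from a GENCODE annotation of GRCm38.

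The members and lists were chosen with earlier results of these data known. Genes of the lists were named if past the threshold or among the 3 with the smallest p per list and comparison; the 10 genes most like the members' mean were taken among genes above 1 mean log2 CPM. Alternatives were DESeq2 1.42.0, library size scaling, no filter, merged copies, a replicate block, depth batches, a prior count of 0.5 and leaving out each library. Alternatives for the pairs, the removal of the depth batch from correlations, the genotype by batch interaction and the AAV groups taken as the columns are named were chosen after seeing the data. All deposited sample columns were used (0 left out).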

Additional observations from a re-analysis of the deposited data

Results flagged for a closer look

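Among the 22 groups of 4 hearts tested (11 genes in 2 genotypes), 2 held a heart that stood apart from the others by Dixon's test at 95%, about what chance gives at 1 in 20. Atf3 was 25.8 CPM in Atf3+/+FS6KD replicate 1, with the gap to its neighbour taking up 0.972 of the range. Without that heart the log2 fold change of Atf3 was 1.89, against 1.14 with it. Jun was 93.8 CPM in Atf3-/-FS6KD replicate 4, with a gap of 0.862 of the range. Without this heart the log2 fold change of Jun was -0.43, against -0.32 with it.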

How the results depend on the processing

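No member passed the adjusted threshold in the knockout comparison under 16 alternatives, in the difference between the experiments under 18, or in its relation to Atf3 under 20. In the AAV comparison DESeq2 called 1 member, Fosl2, and the other 10 alternatives called 0. Over all genes, edgeR called 0 in the knockout comparison and DESeq2 208, and in the AAV comparison the counts were 82 with edgeR, 308 with DESeq2, 304 with no filter and 20 with the replicate block. For the difference between the experiments they were 26 with edgeR, 669 with DESeq2, 205 with library size alone and 61 with no filter. Leaving out 1 library gave 0 to 15, 1 to 285 and 0 to 168 calls. Library size alone moved the median log2 fold change of all genes to 0.06, -0.04 and 0.11.

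Within replicates 3 and 4 the knockout estimates turned to 0.11 (Fosb), 0.04 (Junb), 0.27 (Egr1) and 0.17 (Ier2). Jun in the AAV comparison turned to 0.00 with no filter and to 0.05 with the replicate block, and the interaction of Ier2 to 0.04 with library size alone. With the AAV groups as the columns are named, the interaction of Fosl2 turned to 0.22 and that of Junb to -0.64, and edgeR called 0 genes. When 1 library was left out, values that changed sign ranged from -0.42 to 0.10 for Fosl2 in the knockout comparison. In the AAV comparison they ranged from -0.63 to 0.59 (Fos), -0.04 to 0.98 (Fosb), -0.25 to 0.22 (Jun), -0.08 to 0.21 (Jund), -0.74 to 0.53 (Egr1), -0.37 to 0.13 (Ier2) and -0.18 to 0.52 (Btg2). For the interaction they were -0.22 to 0.28 (Junb), -0.11 to 0.19 (Jund), -1.31 to 0.09 (Egr1) and -0.41 to 0.14 (Ier2).

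The r with Atf3 of Fos, Junb and Jund changed sign to -0.07, 0.01 and 0.47 without the 2 hearts farthest in Atf3, to -0.12, 0.07 and 0.49 with the replicate block, and to -0.07, 0.15 and 0.26 with the depth batch removed. When 1 library was left out, r ranged from -0.16 to 0.27 (Fos), -0.10 to 0.30 (Jun), -0.15 to 0.18 (Junb), -0.34 to 0.03 (Jund) and -0.26 to 0.14 (Egr1). The number of member pairs past the threshold, 7 with all libraries, was 3 to 8 when 1 library was left out (3 without the heart labelled shCtrl replicate 1), 6 with the replicate block and 5 with the depth batch removed, and these need not be the same pairs. The causes were not tested.

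Libraries of the same number correlated by 0.059 to 0.269 in the knockout and by -0.076 to 0.287 in the AAV experiment, so the numbers were not read as pairs. Only some libraries (1 of 4 and 1 of 3) correlated best with their own number, and the replicate block left 0 members called in both comparisons.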
